A study of Homo sapiens with 24 samples.

Results

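Transcripts of 10 amino acid transporters were followed in HEL cells, a human erythroleukaemia line with an activating mutation of the kinase JAK2, treated with inhibitors of Janus kinases (JAK). With earlier results of these data known, the genes were chosen by name from the deposited gene table: SLC7A11, SLC7A5, SLC3A2, SLC1A4, SLC1A5, SLC38A1, SLC38A2, SLC7A1, SLC7A6 and SLC6A9. They are 10 of the 34213 genes in that table, and all 10 passed the filter on low counts that left 16076 genes for testing. The cells received ruxolitinib, fedratinib, momelotinib, pacritinib or itacitinib at 500 nM, or DMSO, the solvent control. RNA was collected after 48 h or 4 h, which gives 12 groups with 2 RNA-seq libraries each and 24 libraries in all. All groups share the JAK2-mutant background of this 1 cell line, and no line without the mutation was analysed here. Nothing in the labels tells whether the 2 libraries of a group were grown as separate cultures; the p-values cover the spread among these libraries, and that spread may be technical. In RNA from whole cultures, fewer cells that carry a transcript and less transcript per cell cannot be told apart.

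Amino acid transporters of the solute carrier (SLC) families move amino acids across the plasma membrane. SLC7A5 carries large neutral amino acids such as leucine and needs the glycoprotein SLC3A2 to reach the cell surface; SLC7A11, the cystine-glutamate exchanger, and SLC7A6 use the same partner. Leucine and glutamine taken up in this way feed the kinase complex mTORC1, cystine feeds glutathione, and in erythroid cells glycine is a precursor of haem. Many of these genes are known targets of ATF4, a transcription factor that is translated when amino acids run short, which binds composite sites in promoters called amino acid response elements.

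Stretches of promoter are shown as a description of these genes, several of which are known ATF4 targets. A relation of the matches to the changes reported below was not tested. RefSeq promoter windows (GRCh38.p14), from 250 bases before to 50 bases after an annotated transcription start, were at hand for 9 of the 10 genes with 15 starts in all; SLC7A11 was not among them. The letters TGATGNAA, searched on both strands, were found at 5 of the 15 starts, 1 each for SLC1A4, SLC3A2, SLC38A1, SLC7A1 and SLC1A5, against 3.62% of 35116 promoters of the same length. The 30 bases around each match are printed 5′ to 3′ in the direction of the gene, with the match in capitals; in SLC1A4 and SLC3A2 the match lies on the opposite strand.
SLC1A4 (chr2:64989381-64989410, + strand): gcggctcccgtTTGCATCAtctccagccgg
SLC3A2 (chr11:62881719-62881748, + strand): gtaatgtgcaggactccTTACATCAgctcc
SLC38A1 (chr12:46266502-46266531, - strand): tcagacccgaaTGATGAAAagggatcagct
SLC7A1 (chr13:29595663-29595692, - strand): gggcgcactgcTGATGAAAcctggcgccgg
SLC1A5 (chr19:46784893-46784922, - strand): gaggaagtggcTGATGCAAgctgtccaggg
In SLC1A4 the match ran from base -7 to base 1 counted from the start, with no base 0, in SLC3A2 from 38 to 45, in SLC38A1 from -4 to 4, in SLC7A1 from 8 to 15, and in SLC1A5 from -97 to -90. The E-box CACGTG, a motif bound by MYC and related factors, stood at 2 of the 15 starts, 1 of SLC7A5 and 1 of SLC1A5, against 7.26% of all promoters.
SLC7A5 (chr16:87869620-87869649, - strand): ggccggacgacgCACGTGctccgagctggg
The letters TTCNNNGAA, a loose form of the sites bound by STAT factors, stood at 3 of the 15 starts, of SLC3A2 and SLC38A1, against 7.66% of all promoters. No match printed here shares a base with another. A match describes letters in a window and does not show that a factor binds there.

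The 10 transcripts spanned a wide range of levels in DMSO. Per kilobase of exon, SLC1A5 stood highest after 4 h with 141 and 142 CPM per kb (CPM, a gene's count scaled to the size of its library) in the libraries of replicates 1 and 2, followed by SLC7A5 with 117 and 123. SLC7A1 had 45.7 and 44.3, SLC3A2 30.4 and 31.9, and SLC38A2 29.4 and 29.1 CPM per kb. SLC38A1 (6.61 and 6.30), SLC1A4 (5.42 and 5.76) and SLC7A6 (5.22 and 5.46) formed a lower tier, in which the libraries of SLC1A4 and SLC7A6 overlapped. SLC7A11 had 2.41 and 2.07, and SLC6A9 had the lowest level with 0.919 and 0.813 CPM per kb. SLC6A9 rests on the fewest reads, 106 to 326 per library, against 13437 to 26834 for SLC7A5. SLC7A11 had the widest range over the 12 group means, 3.94-fold between pacritinib at 4 h and ruxolitinib at 48 h, and SLC7A6 the narrowest, 1.26-fold.

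In GRCh38 with GENCODE 29, SLC7A11 (ENSG00000151012) lies on chromosome 4 from 138164097 to 138242349. SLC7A5 (ENSG00000103257) lies on chromosome 16 from 87830023 to 87869488, and SLC7A6 (ENSG00000103064) on chromosome 16 from 68264516 to 68301823. SLC3A2 (ENSG00000168003) lies on chromosome 11 from 62856102 to 62888875 and SLC1A4 (ENSG00000115902) on chromosome 2 from 64988477 to 65023865. SLC1A5 (ENSG00000105281) lies on chromosome 19 from 46774883 to 46788594 and SLC7A1 (ENSG00000139514) on chromosome 13 from 29509410 to 29595688. SLC38A1 (ENSG00000111371) and SLC38A2 (ENSG00000134294) are neighbours on chromosome 12, from 46183063 to 46270017 and from 46358189 to 46372867, and SLC6A9 (ENSG00000196517) lies on chromosome 1 from 43991500 to 44031467. Whether the reads were counted by strand is not given in the sources used here, and 5 of the genes share exon bases with genes on the opposite strand. SLC7A6 shares up to 3371 bases with SLC7A6OS, SLC1A5 780 with AC008622.2, SLC7A11 691 with SLC7A11-AS1, SLC7A5 271 with AC126696.2 and SLC6A9 219 with CCDC24. Reads from these stretches cannot be told apart without strand. Reads of SLC7A5 may also be shared with its pseudogene copies, which were not analysed here.

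After 48 h, transporters were higher with fedratinib and pacritinib and lower with ruxolitinib than with DMSO, while after 4 h nearly all calls were in the lower direction. A gene was called where the adjusted p of edgeR's quasi-likelihood test, over all 16076 genes, was under 0.05. Because the 10 transporters were chosen with earlier results of these data known, shares over all genes are given here and below for scale only. With fedratinib at 48 h, 7 of the 10 transporters were called higher and 0 lower, where 7.7% of all genes were called (3.66% higher and 4.04% lower). With pacritinib at 48 h, 6 were called higher and 1 lower, where 18.3% of all genes were called (8.26% higher and 10.1% lower). With ruxolitinib at 48 h, 5 were called lower and 0 higher, where 25.7% were called (12.5% higher and 13.2% lower). With momelotinib at 48 h, 1 was called, lower, where 1.94% of all genes were called (0.995% higher and 0.946% lower). The median log2 fold change of the 10 transporters at 48 h was 0.28 with fedratinib, 0.22 with pacritinib, -0.18 with ruxolitinib and -0.03 with momelotinib, while the median over all genes was within 0.01 of 0 in every one of these comparisons.

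After 4 h, 6 transporters were called lower and 0 higher with ruxolitinib, where 8.47% of all genes were called (3.42% higher and 5.04% lower). With momelotinib, 5 were called lower and 0 higher, where 6% of all genes were called (2.21% higher and 3.79% lower). With pacritinib, 4 were called lower and 1 higher, where 30.6% of all genes were called (13.1% higher and 17.4% lower). With fedratinib, 1 was called, higher, where 1.59% were called (0.616% higher and 0.97% lower). With itacitinib, edgeR and DESeq2 called 0 transporters at 48 h and 0 at 4 h, where edgeR called 0.442% of all genes at 48 h (0.0871% higher and 0.355% lower) and 0.778% at 4 h (0.672% higher and 0.106% lower), and 1 and 5 transporters had an unadjusted edgeR p under 0.05. The median log2 fold change at 4 h with ruxolitinib was -0.24, against -0.15 for momelotinib, -0.05 for pacritinib, 0.04 for fedratinib and -0.13 for itacitinib. All comparisons at a time share the same 2 DMSO libraries. Leaving out 1 library moved some counts by over 1.5 times. In each case named next, the number of all genes called moved in the same direction as the count of transporters. The count with fedratinib at 48 h was 4 without fedratinib replicate 1. The count with momelotinib at 4 h was 2 without DMSO or momelotinib replicate 2, and that with fedratinib at 4 h was 0 without DMSO replicate 2 or either fedratinib library. The count with itacitinib at 4 h was 1 without its replicate 1, and that with momelotinib at 48 h was 0 without any 1 of its 4 libraries.

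**Figure D1:**
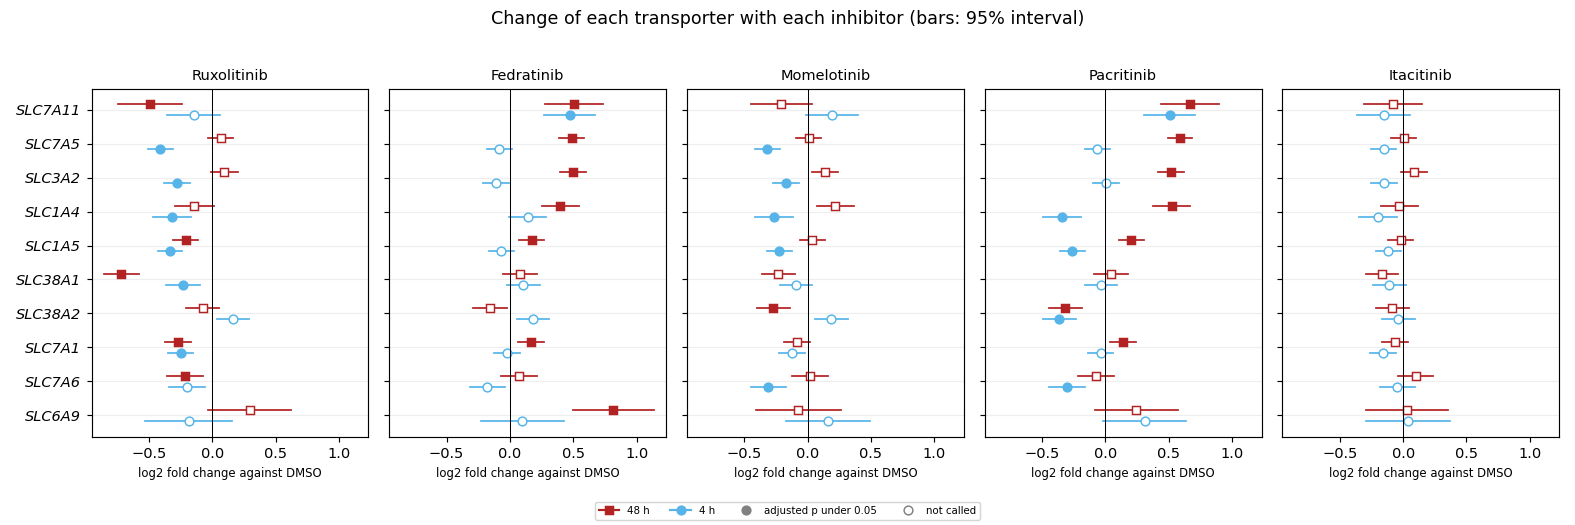
Log2 fold change against DMSO (horizontal axis) of each of the 10 transporters (vertical axis) with each inhibitor at 48 h (squares) and 4 h (circles), with 95% intervals from edgeR; filled symbols have an adjusted p under 0.05. Fedratinib and pacritinib at 48 h have 7 and 6 transporters called higher, ruxolitinib at 48 h has 5 called lower, and itacitinib has no filled symbol.

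The transcripts of JAK-STAT targets give the setting of these changes. PIM1, a kinase gene induced by STAT5, had 190.1 and 199.8 CPM with ruxolitinib at 4 h, against 628 and 632 CPM with DMSO (log2 fold change -1.69 ± 0.055 SE, adjusted p = 4.63e-21). With fedratinib at 4 h it had 565 and 565 CPM (log2 fold change -0.16 ± 0.053 SE, adjusted p = 0.145), and with itacitinib at 4 h 591 and 629.5 CPM (log2 fold change -0.045 ± 0.053 SE, adjusted p = 0.831). PIM1 was lower at 4 h with momelotinib (log2 fold change -0.35 ± 0.053 SE, adjusted p = 3.81e-05) and pacritinib (log2 fold change -0.25 ± 0.053 SE, adjusted p = 0.000488). CISH, a feedback inhibitor of cytokine signalling, was also lower at 4 h with ruxolitinib (log2 fold change -1.76 ± 0.083 SE, adjusted p = 7.99e-17). It was lower at 4 h with pacritinib too (log2 fold change -0.57 ± 0.075 SE, adjusted p = 4.69e-07), as it was with momelotinib (log2 fold change -0.34 ± 0.074 SE, adjusted p = 0.00299). CISH was not called at 4 h with fedratinib (log2 fold change -0.19 ± 0.073 SE, adjusted p = 0.198) or itacitinib (log2 fold change 0.13 ± 0.073 SE, adjusted p = 0.543). At 48 h CISH was higher with pacritinib (log2 fold change 0.43 ± 0.073 SE, adjusted p = 7.83e-05) and lower with ruxolitinib (log2 fold change -0.33 ± 0.076 SE, adjusted p = 0.00133). So was PIM1 at 48 h, with pacritinib (log2 fold change 0.15 ± 0.053 SE, adjusted p = 0.0436) and ruxolitinib (log2 fold change -0.69 ± 0.054 SE, adjusted p = 5.47e-12).

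Library totals were 32153866 to 56618281 counts. The erythroid and megakaryocytic markers fixed for the label were all present (9 of 9, from at least 47.5 CPM for GP9 to 2964 CPM for HBG2), and 11 of 15 defining markers of T cells, B cells, monocytes, epithelium and fibroblasts did not exceed 0.31 CPM. The exceptions were CD2 at 20.3 to 31.5 CPM, CD79A at 3.26 to 7.84, LYZ at 33.5 to 41.7 and COL1A1 at 0.246 to 1.01 CPM. The share of counts on the RN7SL genes, abundant small structural RNAs, was 4.67% and 4.42% with fedratinib and 4.52% and 4.76% with pacritinib at 48 h, against 3.05% and 3.36% with DMSO at 48 h. These are the inhibitors with transporters called higher at that time, but the shares were also 3.92% and 3.99% with ruxolitinib at 48 h. At 4 h the shares were 2.42% and 2.52% with DMSO, lower than in every inhibitor library of that time (2.80% to 3.98%). These DMSO libraries are the reference for the falls at 4 h and for the DMSO comparison between the times. The part of the RN7SL share in the results was not tested.

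**Figure D2:**
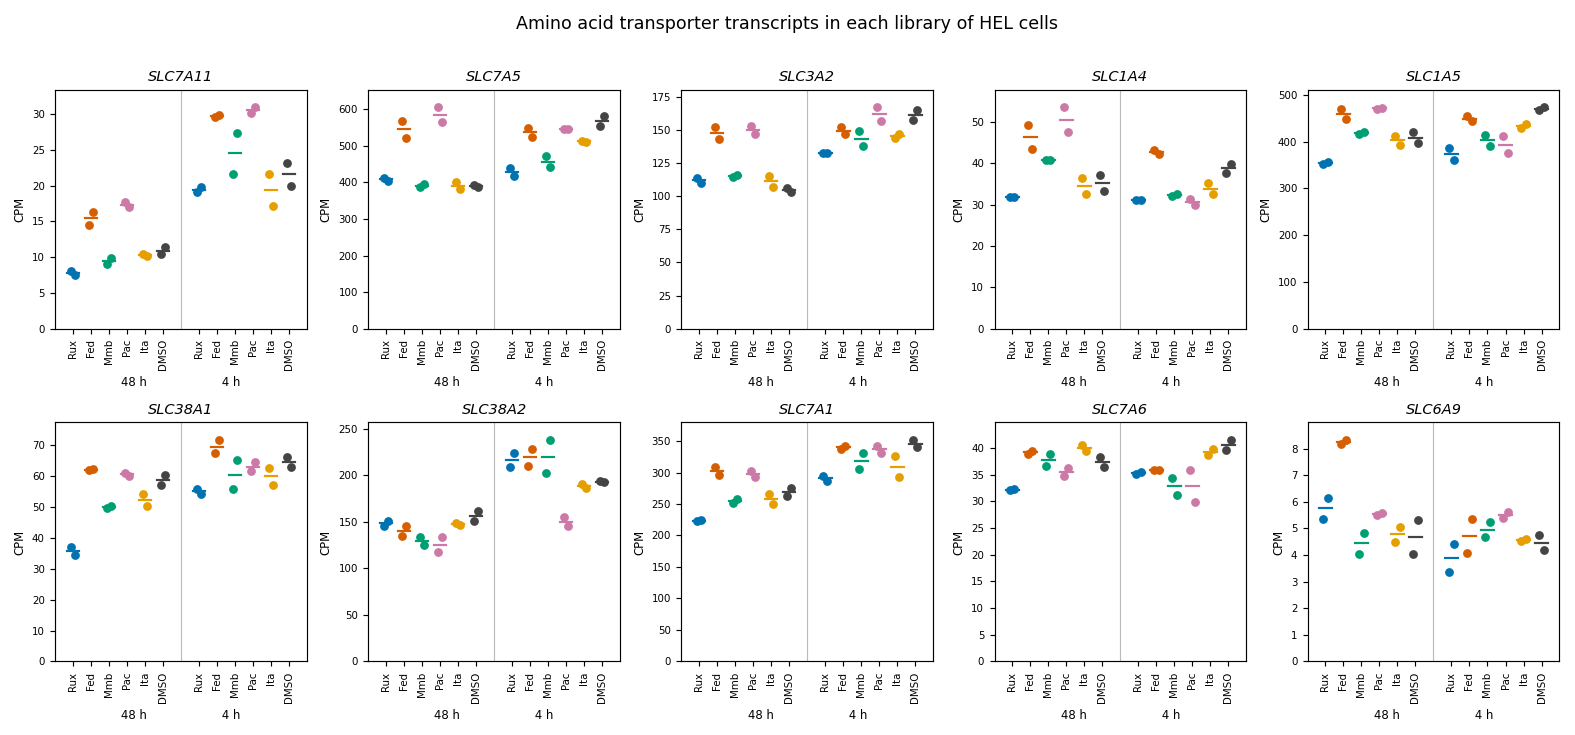
CPM of each transporter in every library (points, 2 per group) and the group mean (bars), by treatment, at 48 h in the left block and at 4 h in the right block of each panel; axes start at 0. For SLC7A5 and SLC3A2 the fedratinib and pacritinib libraries at 48 h stand apart above all others at that time, and for SLC38A1 the ruxolitinib libraries at 48 h stand below all others.

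SLC7A5, the leucine carrier, and its partner SLC3A2, the heavy chain of the CD98 antigen, were higher with fedratinib and pacritinib after 48 h and lower with ruxolitinib and momelotinib after 4 h. SLC7A5 had 569 and 523 CPM in replicates 1 and 2 with fedratinib and 606 and 566 CPM with pacritinib at 48 h, against 392 and 387 CPM with DMSO. With ruxolitinib it had 413 and 404 CPM, momelotinib gave 387 and 395 and itacitinib 400.4 and 381 CPM. All fedratinib and pacritinib libraries lay above all others of that time, and the momelotinib and itacitinib libraries overlapped with DMSO. The rise was 1.401-fold with fedratinib (log2 fold change 0.49 ± 0.048 SE, adjusted p = 2.73e-08) and 1.504-fold with pacritinib (log2 fold change 0.59 ± 0.048 SE, adjusted p = 1.36e-10). With ruxolitinib the 95% interval of the log2 fold change at 48 h was -0.030 to 0.17.

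After 4 h, SLC7A5 had 438 and 418 CPM with ruxolitinib and 472 and 441 CPM with momelotinib, against 556 and 583 CPM with DMSO. With fedratinib it had 549.6 and 525, with pacritinib 545 and 545 and with itacitinib 513 and 512 CPM. Both DMSO libraries lay above every inhibitor library. The test called the fall with ruxolitinib (log2 fold change -0.41 ± 0.048 SE, adjusted p = 1.99e-07) and with momelotinib (log2 fold change -0.32 ± 0.048 SE, adjusted p = 2.83e-05). The values with fedratinib (log2 fold change -0.085, adjusted p = 0.447), pacritinib (-0.063, adjusted p = 0.345) and itacitinib (-0.15, adjusted p = 0.155) did not pass.

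SLC3A2 had 152 and 144 CPM with fedratinib and 153 and 147 CPM with pacritinib at 48 h, against 106 and 104 CPM with DMSO. It had 114 and 110.0 CPM with ruxolitinib, 115 and 116 with momelotinib and 115 and 107 with itacitinib. As for SLC7A5, the fedratinib and pacritinib libraries lay above all others of that time. The rises were 1.41-fold with fedratinib (log2 fold change 0.50 ± 0.051 SE, adjusted p = 6.00e-08) and 1.43-fold with pacritinib (log2 fold change 0.52 ± 0.051 SE, adjusted p = 7.48e-09). After 4 h, SLC3A2 had 133 and 133 CPM with ruxolitinib, against 158 and 165 CPM with DMSO. The SLC3A2 level was 149 and 138 CPM with momelotinib, 153 and 147 with fedratinib, 167 and 157 with pacritinib and 144 and 147 with itacitinib. It fell with ruxolitinib (log2 fold change -0.28 ± 0.050 SE, adjusted p = 0.000243) and, by less, with momelotinib (log2 fold change -0.17 ± 0.050 SE, adjusted p = 0.0374). The momelotinib call was lost without DMSO replicate 1 (adjusted p = 0.052), DMSO replicate 2 (0.332) or momelotinib replicate 2 (0.312), with the low-count filter off (0.0666) and with the 4 h libraries alone (0.0659). The ratio of SLC7A5 to SLC3A2 CPM was 3.85 to 3.95 with pacritinib at 48 h, against 3.69 and 3.74 with DMSO at 48 h, and 3.15 and 3.30 with ruxolitinib at 4 h, against 3.53 and 3.54 with DMSO at 4 h. Also below DMSO at 4 h were momelotinib (3.165 and 3.203) and pacritinib (3.26 and 3.473), while fedratinib lay above (3.604 and 3.571). Below DMSO at 48 h were momelotinib (3.379 and 3.412), itacitinib (3.472 and 3.55) and ruxolitinib (3.62 and 3.67).

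SLC7A11, which imports cystine for glutathione synthesis, was higher with fedratinib and pacritinib at both times and lower with ruxolitinib at 48 h. At 48 h it had 14.5 and 16.4 CPM with fedratinib and 17.7 and 16.95 with pacritinib, against 10.4 and 11.4 CPM with DMSO. It had 8.05 and 7.45 CPM with ruxolitinib, 8.98 and 9.86 with momelotinib and 10.5 and 10.1 with itacitinib. The fedratinib and pacritinib libraries lay above, and the ruxolitinib libraries below, all others of that time, while the itacitinib libraries overlapped with DMSO. The change at 48 h was 1.59-fold with pacritinib (log2 fold change 0.67 ± 0.11 SE, adjusted p = 5.13e-05), 1.42-fold with fedratinib (log2 fold change 0.50 ± 0.11 SE, adjusted p = 0.0043) and 0.711-fold with ruxolitinib (log2 fold change -0.49 ± 0.12 SE, adjusted p = 0.00271). The fedratinib call at 48 h was lost without DMSO replicate 1 (adjusted p = 0.0793) or fedratinib replicate 2 (0.0767).

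After 4 h, SLC7A11 had 29.6 and 29.9 CPM with fedratinib and 30.2 and 30.97 with pacritinib, against 23.2 and 19.9 CPM with DMSO. It had 19.1 and 19.8 CPM with ruxolitinib, 21.7 and 27.4 with momelotinib and 21.6 and 17.1 with itacitinib. The momelotinib libraries overlapped with DMSO, and those of fedratinib and pacritinib lay above it. SLC7A11 was the only transporter called higher at 4 h with any of the 5 inhibitors: with pacritinib (log2 fold change 0.51 ± 0.10 SE, adjusted p = 0.000174) and with fedratinib (log2 fold change 0.47 ± 0.10 SE, adjusted p = 0.00975). The fedratinib call at 4 h was lost without DMSO replicate 2 (adjusted p = 0.294), fedratinib replicate 1 (0.066) or fedratinib replicate 2 (0.0793). SLC7A11 also had the largest difference between inhibitors, by edgeR a log2 fold change at 48 h of -1.16 ± 0.12 SE in ruxolitinib over pacritinib, adjusted p = 6.10e-09 over genes and pairs.

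SLC1A4 and SLC1A5, sodium-coupled exchangers of small neutral amino acids (SLC1A5 is the ASCT2 carrier of glutamine), changed in opposite directions at the 2 times with pacritinib. SLC1A4 had 53.6 and 47.6 CPM with pacritinib and 49.2 and 43.5 with fedratinib at 48 h, against 37.2 and 33.2 CPM with DMSO. It had 31.8 and 31.96 CPM with ruxolitinib, 40.9 and 40.96 with momelotinib and 36.4 and 32.6 with itacitinib. Both libraries of pacritinib, fedratinib and momelotinib lay above DMSO, and both of ruxolitinib below it. The rises with pacritinib (log2 fold change 0.52 ± 0.072 SE, adjusted p = 2.98e-06) and fedratinib (log2 fold change 0.40 ± 0.072 SE, adjusted p = 0.000492) were called, and the value with momelotinib was not (log2 fold change 0.22 ± 0.073 SE, adjusted p = 0.118). The fedratinib call was lost without fedratinib replicate 1 (adjusted p = 0.0519).

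After 4 h, SLC1A4 had 31.5 and 29.9 CPM with pacritinib, against 37.6 and 39.98 CPM with DMSO. SLC1A4 stood at 31.2 and 31.2 CPM with ruxolitinib and 32.1 and 32.5 with momelotinib. It had 43.3 and 42.3 CPM with fedratinib and 35.2 and 32.6 with itacitinib. Fedratinib alone had both libraries above DMSO, with a change that was not called (log2 fold change 0.14 ± 0.071 SE, adjusted p = 0.388). The falls were called with pacritinib (log2 fold change -0.34 ± 0.073 SE, adjusted p = 0.000532), ruxolitinib (log2 fold change -0.32 ± 0.074 SE, adjusted p = 0.00445) and momelotinib (log2 fold change -0.26 ± 0.073 SE, adjusted p = 0.0236). The ruxolitinib call did not hold when replicate 2 of DMSO (adjusted p = 0.101) or of ruxolitinib (0.0543) was left out, and the momelotinib call without DMSO replicate 2 (0.267) or either momelotinib library (0.0914 and 0.0735).

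SLC1A5 had 469.7 and 472 CPM with pacritinib and 471 and 449 with fedratinib at 48 h, against 419.7 and 398 CPM with DMSO. It had 351 and 356 CPM with ruxolitinib, 416 and 421 with momelotinib and 412 and 394 with itacitinib. The called changes were 1.15-fold with pacritinib (log2 fold change 0.21 ± 0.048 SE, adjusted p = 0.00251), 1.13-fold with fedratinib (log2 fold change 0.17 ± 0.048 SE, adjusted p = 0.0241) and 0.865-fold with ruxolitinib (log2 fold change -0.21 ± 0.048 SE, adjusted p = 0.00119). The pacritinib call was lost without DMSO replicate 2 (adjusted p = 0.0897), and the fedratinib call without DMSO replicate 2 (0.321) or fedratinib replicate 1 (0.287). After 4 h, SLC1A5 had 387 and 360.2 CPM with ruxolitinib, against 468 and 474 CPM with DMSO. The SLC1A5 level was 412 and 375 CPM with pacritinib, 415 and 392 with momelotinib, 455 and 444 with fedratinib and 430.3 and 439 with itacitinib. Both DMSO libraries lay above every inhibitor library. The falls with ruxolitinib (log2 fold change -0.33 ± 0.048 SE, adjusted p = 8.85e-06), pacritinib (log2 fold change -0.26 ± 0.048 SE, adjusted p = 8.69e-05) and momelotinib (log2 fold change -0.22 ± 0.048 SE, adjusted p = 0.00257) were called and held without any 1 library.

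SLC38A1 and SLC38A2 are sodium-coupled carriers of glutamine and alanine, and neighbours in the genome. By group mean, SLC38A1 was lowest with ruxolitinib and SLC38A2 with pacritinib at both times. SLC38A1 had 37.1 and 34.3 CPM with ruxolitinib at 48 h, against 57.2 and 60.3 CPM with DMSO. It had 61.9 and 62.2 CPM with fedratinib, 61.1 and 60.04 with pacritinib, 49.7 and 50.3 with momelotinib and 54.4 and 50.4 with itacitinib. The fall to 0.609 of the DMSO level with ruxolitinib (log2 fold change -0.72 ± 0.067 SE, adjusted p = 3.76e-10) was the largest fall of any of the 10 transporters against DMSO. The lower values with momelotinib (log2 fold change -0.23 ± 0.065 SE, adjusted p = 0.0553) and itacitinib (log2 fold change -0.17 ± 0.064 SE, adjusted p = 0.294) did not pass the test. Both libraries of each lay below the same DMSO libraries, which is given as a description only. After 4 h, SLC38A1 had 55.7 and 54.4 CPM with ruxolitinib, against 66.1 and 63.1 CPM with DMSO. SLC38A1 stood at 67.3 and 71.7 CPM with fedratinib, 61.7 and 64.4 with pacritinib, 55.8 and 65.2 with momelotinib and 62.6 and 57.2 with itacitinib. The ruxolitinib libraries lay below all others of that time. The fall with ruxolitinib (log2 fold change -0.23 ± 0.064 SE, adjusted p = 0.0186) was lost without DMSO replicate 1 (adjusted p = 0.155), DMSO replicate 2 (0.0528), ruxolitinib replicate 1 (0.0707) or ruxolitinib replicate 2 (0.17).

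SLC38A2 was the only transporter called lower with pacritinib at both times. It had 118 and 134 CPM with pacritinib and 134 and 125 with momelotinib at 48 h, against 151 and 162 CPM with DMSO. It had 146 and 151 CPM with ruxolitinib, 135 and 146 with fedratinib and 149 and 146 with itacitinib. Both libraries of every inhibitor lay below both DMSO libraries, by less than 1 CPM for ruxolitinib replicate 2 and DMSO replicate 1. The falls with pacritinib (log2 fold change -0.32 ± 0.065 SE, adjusted p = 0.000634) and momelotinib (log2 fold change -0.27 ± 0.064 SE, adjusted p = 0.0211) were called. The momelotinib call was lost without DMSO replicate 1 (adjusted p = 0.0561), DMSO replicate 2 (0.289), momelotinib replicate 1 (0.101) or momelotinib replicate 2 (0.216). After 4 h, SLC38A2 had 155 and 146 CPM with pacritinib, against 194 and 192 CPM with DMSO. The SLC38A2 level was 209 and 223 CPM with ruxolitinib, 210.0 and 228 with fedratinib, 202 and 238 with momelotinib and 191 and 186 with itacitinib. Pacritinib lay below (log2 fold change -0.36 ± 0.064 SE, adjusted p = 4.49e-05), while both libraries of ruxolitinib (log2 fold change 0.16 ± 0.063 SE, adjusted p = 0.117), fedratinib (log2 fold change 0.18 ± 0.063 SE, adjusted p = 0.155) and momelotinib (log2 fold change 0.19 ± 0.063 SE, adjusted p = 0.0758) lay above DMSO without a call. Set directly against pacritinib at 4 h, SLC38A2 was higher with ruxolitinib (log2 fold change 0.53 ± 0.064 SE, adjusted p = 4.08e-07 over genes and pairs).

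SLC7A1, the main carrier of arginine and lysine, was lower with ruxolitinib at both times. At 48 h it had 223 and 224 CPM with ruxolitinib, against 263 and 276 CPM with DMSO. SLC7A1 stood at 309 and 296 CPM with fedratinib, 303 and 292 with pacritinib, 251 and 259 with momelotinib and 265 and 251 with itacitinib. The ruxolitinib libraries lay below and the fedratinib and pacritinib libraries above all others. The fall with ruxolitinib was called (log2 fold change -0.27 ± 0.050 SE, adjusted p = 8.99e-05). The rises with fedratinib (log2 fold change 0.17 ± 0.050 SE, adjusted p = 0.0355) and pacritinib (log2 fold change 0.14 ± 0.050 SE, adjusted p = 0.0448) were each lost without any 1 of the 4 libraries compared, with adjusted p of 0.0605 to 0.322 for fedratinib and 0.0876 to 0.335 for pacritinib. After 4 h it had 295 and 287 CPM with ruxolitinib, against 351 and 341 CPM with DMSO. The SLC7A1 level was 338 and 342 CPM with fedratinib, 342 and 332 with pacritinib, 305 and 330.2 with momelotinib and 326 and 292 with itacitinib. The ruxolitinib libraries lay below both DMSO libraries and overlapped with itacitinib. The fall with ruxolitinib at 4 h was called (log2 fold change -0.25 ± 0.050 SE, adjusted p = 0.000861) and held without any 1 library.

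SLC7A6, a carrier that exchanges cationic for neutral amino acids and pairs with SLC3A2, was lower with ruxolitinib at 48 h and with momelotinib and pacritinib at 4 h. At 48 h it had 32.1 and 32.2 CPM with ruxolitinib, against 38.2 and 36.4 CPM with DMSO. SLC7A6 stood at 38.9 and 39.5 CPM with fedratinib, 34.6 and 36.1 with pacritinib, 36.6 and 38.8 with momelotinib and 40.6 and 39.4 with itacitinib. The ruxolitinib libraries lay below all others of that time. The ruxolitinib fall at 48 h (log2 fold change -0.21 ± 0.071 SE, adjusted p = 0.0238) was lost when DMSO replicate 1 was left out (adjusted p = 0.167), and likewise for ruxolitinib replicate 1 (0.101) or ruxolitinib replicate 2 (0.0925). SLC7A6 was not called with fedratinib (95% interval -0.071 to 0.21) or pacritinib (-0.22 to 0.068) at 48 h. After 4 h it had 34.4 and 31.1 CPM with momelotinib, against 39.6 and 41.4 CPM with DMSO. The SLC7A6 level was 35.9 and 29.8 CPM with pacritinib, 35.05 and 35.4 with ruxolitinib, 35.8 and 35.9 with fedratinib and 38.7 and 39.9 with itacitinib. The momelotinib and pacritinib libraries lay below both DMSO libraries, and those of itacitinib overlapped with DMSO. The falls at 4 h were called with momelotinib (log2 fold change -0.31 ± 0.070 SE, adjusted p = 0.00432) and pacritinib (log2 fold change -0.31 ± 0.070 SE, adjusted p = 0.000976). The pacritinib call was lost without pacritinib replicate 2 (0.116), and the momelotinib call without DMSO replicate 2 (0.0927) or momelotinib replicate 2 (0.101).

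SLC6A9, the glycine transporter GLYT1, was higher with fedratinib at 48 h and was called in no other comparison with DMSO. At 48 h it had 8.17 and 8.32 CPM with fedratinib, against 4.04 and 5.32 CPM with DMSO. SLC6A9 stood at 5.34 and 6.16 CPM with ruxolitinib, 5.51 and 5.57 with pacritinib, 4.03 and 4.84 with momelotinib and 4.49 and 5.06 with itacitinib. The fedratinib libraries lay above all other libraries of the series. The rise was 1.76-fold (log2 fold change 0.82 ± 0.16 SE, adjusted p = 0.000833) and held without any 1 library. The difference from pacritinib at 48 h was also called (log2 fold change 0.57 ± 0.15 SE, adjusted p = 0.0094 over genes and pairs). After 4 h it had 3.35 and 4.42 CPM with ruxolitinib, against 4.74 and 4.195 CPM with DMSO. The SLC6A9 level was 4.09 and 5.37 CPM with fedratinib, 5.405 and 5.62 with pacritinib, 4.67 and 5.25 with momelotinib and 4.54 and 4.601 with itacitinib. The pacritinib libraries lay above both DMSO libraries, and the other inhibitors overlapped with DMSO. At this low level the 95% intervals at 4 h were wide, from -0.53 to 0.16 with ruxolitinib to -0.016 to 0.64 with pacritinib.

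In DMSO itself, transporters fell between the times: 6 of the 10 were called lower and 0 higher at 48 h than at 4 h, where 8.16% of all genes were called (4.04% higher and 4.12% lower). SLC7A11 had 10.4 and 11.4 CPM at 48 h, against 23.2 and 19.9 CPM at 4 h (log2 fold change -0.98 ± 0.11 SE, adjusted p = 1.96e-07). SLC3A2 (log2 fold change -0.62 ± 0.051 SE, adjusted p = 3.16e-10) and SLC7A5 (log2 fold change -0.55 ± 0.048 SE, adjusted p = 1.39e-09) followed, then SLC7A1 (log2 fold change -0.36 ± 0.050 SE, adjusted p = 1.13e-05), SLC38A2 (log2 fold change -0.30 ± 0.064 SE, adjusted p = 0.00214) and SLC1A5 (log2 fold change -0.21 ± 0.048 SE, adjusted p = 0.00569). The SLC38A2 call was lost without 48 h replicate 1 (adjusted p = 0.0595), and the SLC1A5 call without 48 h replicate 2 (0.12) or 4 h replicate 2 (0.0666). SLC1A4, SLC38A1 and SLC7A6 had log2 fold changes of -0.14, -0.14 and -0.12 without a call, and SLC6A9 one of 0.073.

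Whether the inhibitor effect itself differed between 48 h and 4 h was tested for each of the 5 inhibitors, by the change against DMSO at 48 h minus that at 4 h. With pacritinib 4 transporters were called with a higher change at 48 h and 0 with a lower one (17.9% of all genes called, 10.3% higher and 7.58% lower). The counts were 4 and 1 with momelotinib (2.33% of all genes, 1.57% higher and 0.759% lower), 3 and 1 with fedratinib (4.12%, 2% higher and 2.12% lower) and 2 and 1 with ruxolitinib (8.72%, 4.32% higher and 4.4% lower). With itacitinib edgeR and DESeq2 called 0 (edgeR called 0.0124% of all genes), with 2 transporters at an unadjusted edgeR p under 0.05. By edgeR, SLC7A5 and SLC3A2 were called with a higher change at 48 h with all inhibitors but itacitinib. With itacitinib these 2 had the unadjusted p under 0.05, and their differences had the same direction without a call. They were 0.16 for SLC7A5 (edgeR adjusted p = 0.663) and 0.23 for SLC3A2 (edgeR adjusted p = 0.479). All 5 inhibitors are set against the same DMSO libraries, in which both transcripts fell between the times. The edgeR difference in SLC7A5 was 0.65 with pacritinib (adjusted p = 3.06e-08), 0.57 with fedratinib (adjusted p = 3.73e-06), 0.48 with ruxolitinib (adjusted p = 6.91e-06) and 0.33 with momelotinib (adjusted p = 0.00565). The largest difference was that of SLC1A4 with pacritinib, 0.86 ± 0.10 SE (adjusted p = 3.38e-07), where its change was 0.52 at 48 h and -0.34 at 4 h. SLC38A1 was called only with ruxolitinib, with a lower change at 48 h (-0.49, adjusted p = 0.000501), and SLC38A2 had a lower change at 48 h with momelotinib (-0.46, adjusted p = 0.00305) and fedratinib (-0.34, adjusted p = 0.0259). The SLC3A2 call with momelotinib was lost, at the adjusted p given, without DMSO replicate 2 at 48 h (0.106), momelotinib replicate 1 at 48 h (0.0504), momelotinib replicate 2 at 48 h (0.0876), DMSO replicate 2 at 4 h (0.111) or momelotinib replicate 2 at 4 h (0.102). SLC7A11 was called for no inhibitor, with differences from -0.40 with momelotinib to 0.16 with pacritinib. Adjusted p in brackets, the SLC7A5 call with momelotinib was lost without DMSO replicate 2 at 4 h (0.0576) and the SLC38A2 call with fedratinib without DMSO replicate 2 at 48 h (0.156), fedratinib replicate 1 at 48 h (0.164), DMSO replicate 1 at 4 h (0.0604), DMSO replicate 2 at 4 h (0.0831) or fedratinib replicate 2 at 4 h (0.163). The counts depended on single libraries for momelotinib, which had 1 call without DMSO replicate 2 at 4 h and 2 without DMSO replicate 2 at 48 h. It had 3 without momelotinib replicate 2 at 4 h or either momelotinib library at 48 h. Fedratinib had 2 without either DMSO library at 4 h or fedratinib replicate 1 at 48 h.

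**Figure D3:**
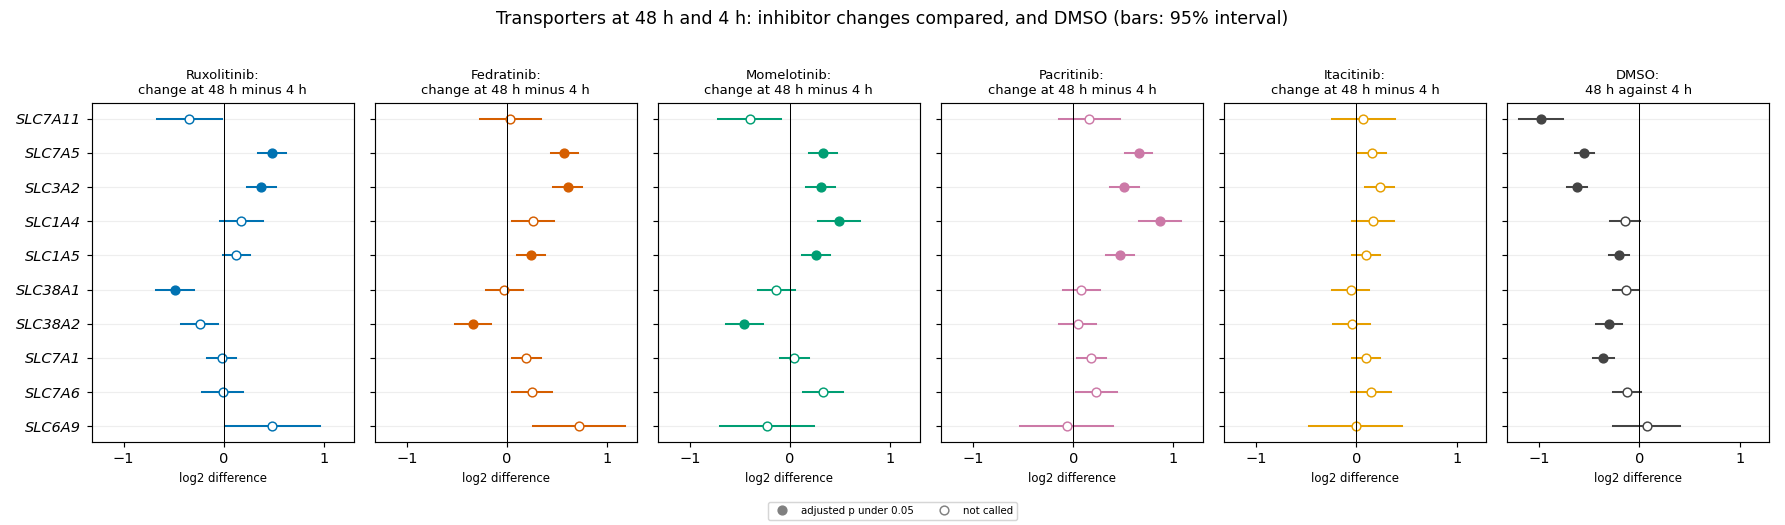
Difference on the log2 scale (horizontal axis) for each transporter (vertical axis): in the first 5 panels the change against DMSO at 48 h minus that at 4 h, and in the last panel DMSO at 48 h against DMSO at 4 h, with 95% intervals; filled points have an adjusted p under 0.05. SLC7A5 and SLC3A2 are filled and above 0 for 4 inhibitors and filled and below 0 in DMSO.

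All 5 inhibitors were given at the same dose and times, so they were also compared directly, over 10 pairs at each time with p-values adjusted over genes and pairs together. Over the 10 transporters, 60 of 100 such tests were called at 48 h, where 13.8% of tests over all genes were called, and 42 of 100 at 4 h, where 11.3% were called. Ruxolitinib was lower than fedratinib for 9 transporters at 48 h and 7 at 4 h, and higher for 0 at either time. Adjusted over genes within this pair alone, the counts were 0 transporters higher and 9 lower at 48 h, where 20.6% of all genes were called (10.1% higher and 10.5% lower), and 0 transporters higher and 6 lower at 4 h, where 3.52% of all genes were called (1.4% higher and 2.12% lower). The widest of these at 48 h were SLC7A11 (log2 fold change -0.99 ± 0.12 SE, adjusted p = 1.56e-07) and SLC38A1 (log2 fold change -0.80 ± 0.067 SE, adjusted p = 9.94e-11). Pacritinib was higher than itacitinib for 7 transporters at 48 h and lower for 1, SLC38A2 (log2 fold change -0.23 ± 0.064 SE, adjusted p = 0.0128). Within this pair alone the counts were 7 transporters higher and 1 lower at 48 h, where 15.6% of all genes were called (8.14% higher and 7.47% lower). Ruxolitinib was lower than itacitinib for 5 transporters at 48 h, of which SLC38A1 differed most (log2 fold change -0.55 ± 0.066 SE, adjusted p = 1.97e-07). At 4 h it was lower for SLC7A5 (log2 fold change -0.26 ± 0.048 SE, adjusted p = 0.000264) and SLC1A5 (log2 fold change -0.22 ± 0.048 SE, adjusted p = 0.00195) and higher for SLC38A2 (log2 fold change 0.20 ± 0.063 SE, adjusted p = 0.0338). Adjusted over genes alone, ruxolitinib against itacitinib gave 5 calls lower and 0 higher at 48 h (21.9% of all genes called, 11.7% higher and 10.2% lower) and 2 lower and 0 higher at 4 h (5.9%, 2.29% higher and 3.61% lower). Those counts were 2 at 48 h without itacitinib replicate 1, and 1 at 4 h without replicate 2 of ruxolitinib or of itacitinib.

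Fedratinib and pacritinib differed for 1 transporter at 48 h, SLC6A9. Among the others, the 95% intervals of fedratinib over pacritinib at 48 h were -0.20 to -0.0048 for SLC7A5 and 0.026 to 0.29 for SLC38A2. They were -0.12 to 0.081 for SLC3A2, -0.38 to 0.054 for SLC7A11 and -0.27 to 0.019 for SLC1A4. Without adjustment, 4 of the 10 transporters had an edgeR p under 0.05 for this pair at 48 h. At 4 h the same pair differed for SLC38A2 (log2 fold change 0.54 ± 0.063 SE, adjusted p = 2.07e-07), SLC1A4 (log2 fold change 0.48 ± 0.072 SE, adjusted p = 1.60e-05) and SLC1A5 (log2 fold change 0.19 ± 0.048 SE, adjusted p = 0.0063), each higher with fedratinib. For this pair alone, edgeR called 1 transporter higher and 0 lower at 48 h, where 12% of all genes were called (6.48% higher and 5.52% lower), and 3 transporters higher and 0 lower at 4 h, where 28.7% of all genes were called (16.6% higher and 12.1% lower). Ruxolitinib and momelotinib differed for 1 transporter at 4 h, SLC7A11 (log2 fold change -0.34 ± 0.10 SE, adjusted p = 0.0239), and for 6 at 48 h, of which SLC38A1 differed most (log2 fold change -0.49 ± 0.068 SE, adjusted p = 2.68e-06). Ruxolitinib against momelotinib, adjusted within the pair, gave 1 transporter higher and 5 lower at 48 h, where 21% of all genes were called (10.3% higher and 10.7% lower). At 4 h, where 0.722% of all genes were called (0.355% higher and 0.367% lower), SLC7A11 did not pass within the pair (edgeR adjusted p = 0.166). Momelotinib and itacitinib differed for 2 transporters at 48 h, SLC1A4 (log2 fold change 0.25 ± 0.071 SE, adjusted p = 0.0157) and SLC38A2 (log2 fold change -0.19 ± 0.064 SE, adjusted p = 0.0489). Adjusted within this pair, where edgeR called 1.01% of all genes (0.759% higher and 0.249% lower), neither SLC1A4 (adjusted p = 0.0778) nor SLC38A2 (adjusted p = 0.16) passed.

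Other genes of amino acid handling were read from 6 lists. Of 20 tested genes of the ATF4 response, 11 rose and 0 fell with fedratinib at 48 h (median log2 fold change 0.22), and 12 rose and 0 fell with pacritinib at 48 h (median 0.21). Of all genes, 7.7% were called with fedratinib (3.66% higher and 4.04% lower) and 18.3% with pacritinib (8.26% higher and 10.1% lower). CHAC1, which breaks down glutathione, rose most with both (fedratinib: log2 fold change 1.78 ± 0.17 SE, adjusted p = 2.06e-08; pacritinib: log2 fold change 1.54 ± 0.18 SE, adjusted p = 1.17e-07), and PHGDH, the entry enzyme of serine synthesis, rose with fedratinib (log2 fold change 1.02 ± 0.071 SE, adjusted p = 3.99e-11) and pacritinib (log2 fold change 1.21 ± 0.071 SE, adjusted p = 1.59e-13). With ruxolitinib at 48 h, 2 rose and 8 fell (median -0.24), where 25.7% of all genes were called (12.5% higher and 13.2% lower). The largest fall was in DDIT4, an inhibitor of mTORC1 (log2 fold change -1.09 ± 0.15 SE, adjusted p = 1.13e-06). With pacritinib at 4 h, 7 rose and 7 fell, where 30.6% of all genes were called, with the largest falls in ATF3 (log2 fold change -1.44 ± 0.19 SE, adjusted p = 4.46e-07), EIF2AK3 (log2 fold change -0.84 ± 0.10 SE, adjusted p = 6.39e-08) and DDIT3 (log2 fold change -0.81 ± 0.11 SE, adjusted p = 7.84e-07). In DMSO, 0 rose and 13 fell at 48 h relative to 4 h (median -0.34), where 8.16% of all genes were called (4.04% higher and 4.12% lower). ATF3 (log2 fold change -3.27 ± 0.23 SE, adjusted p = 1.21e-11) and CHAC1 (log2 fold change -2.34 ± 0.17 SE, adjusted p = 1.24e-11) were among those that fell. The transcript of ATF4 itself had 494 and 444 CPM with pacritinib and 422 and 409 with fedratinib at 48 h, against 359 and 352 CPM with DMSO, and was called higher with both (pacritinib: log2 fold change 0.40 ± 0.046 SE, adjusted p = 1.35e-07; fedratinib: log2 fold change 0.23 ± 0.046 SE, adjusted p = 0.00199). ATF4 was also higher with pacritinib at 4 h, with 566 and 584 CPM against 455 and 452 CPM with DMSO (log2 fold change 0.34 ± 0.046 SE, adjusted p = 7.29e-07), where 4 of the 5 transporters called were lower. With ruxolitinib at 48 h ATF4 was not called (log2 fold change 0.011 ± 0.046 SE, adjusted p = 0.899). In DMSO its transcript was lower at 48 h than at 4 h (log2 fold change -0.35 ± 0.046 SE, adjusted p = 4.16e-06).

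Of the 11 other plasma membrane amino acid transporters that were tested, of 33 in the table, 1 rose and 4 fell with ruxolitinib at 48 h, 1 rose and 3 fell with pacritinib at 48 h and 1 rose and 1 fell with fedratinib at 48 h. The shares of all genes called there were 25.7% with ruxolitinib, 18.3% with pacritinib and 7.7% with fedratinib. SLC6A19, a carrier of neutral amino acids known from gut and kidney, fell with ruxolitinib (log2 fold change -0.97 ± 0.091 SE, adjusted p = 3.48e-10) and pacritinib (log2 fold change -0.69 ± 0.088 SE, adjusted p = 8.42e-07) at 48 h and rose with fedratinib (log2 fold change 0.27 ± 0.084 SE, adjusted p = 0.045). SLC43A1, another carrier of leucine, rose with pacritinib at 48 h (log2 fold change 0.31 ± 0.062 SE, adjusted p = 0.000522). SLC43A2, of the same family, fell there (log2 fold change -0.57 ± 0.16 SE, adjusted p = 0.00929). Of 7 lysosomal amino acid transporters, 0 rose and 2 fell with pacritinib at 4 h, a share near the 30.6% of all genes called there; the largest fall was that of SLC66A1, an exporter of cationic amino acids from the lysosome (log2 fold change -1.19 ± 0.19 SE, adjusted p = 8.05e-06). With ruxolitinib at 48 h, where 25.7% of all genes were called (12.5% higher and 13.2% lower), 2 rose and 3 fell of 10 mitochondrial carriers. Of 31 genes of amino acid sensing by mTORC1, 5 rose and 4 fell with ruxolitinib at 48 h, a share near that of all genes. SESN3, a sestrin, rose with ruxolitinib at 48 h (log2 fold change 0.70 ± 0.093 SE, adjusted p = 4.99e-07) and with fedratinib at 4 h (log2 fold change 0.69 ± 0.093 SE, adjusted p = 5.94e-05). Of 12 genes of cystine use and glutathione, SLC7A11 included, 2 rose and 3 fell with pacritinib at 48 h, where 18.3% of all genes were called. HMOX1, a haem-degrading enzyme, fell most (log2 fold change -0.83 ± 0.13 SE, adjusted p = 3.39e-05). GCLC, the catalytic subunit of the first enzyme of glutathione synthesis, rose with ruxolitinib at 48 h (log2 fold change 0.45 ± 0.054 SE, adjusted p = 7.17e-08).

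**Figure D4:**
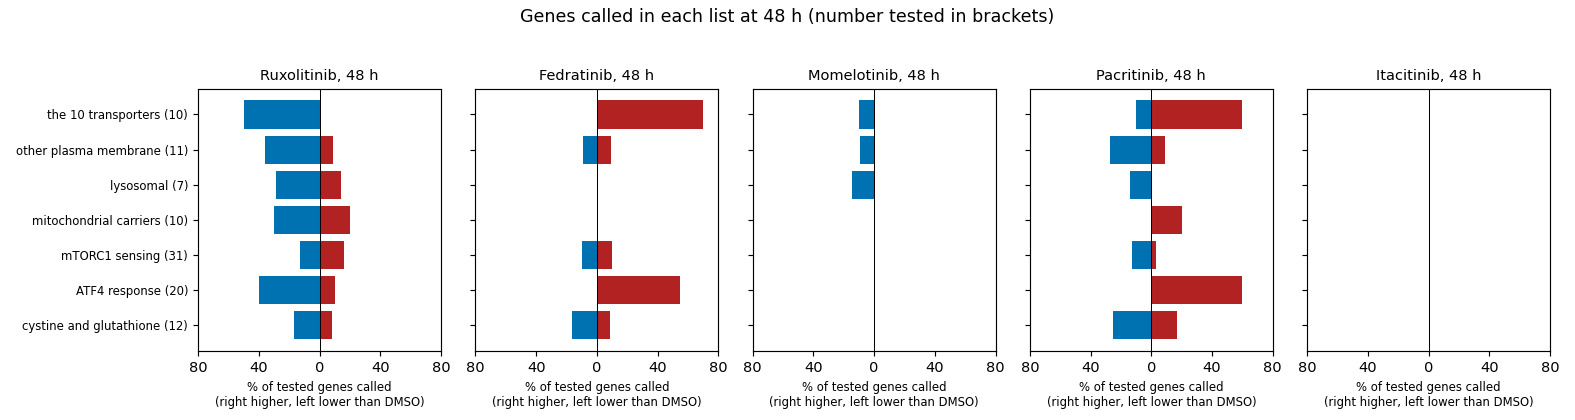
Share of the tested genes of each list (vertical axis, number tested in brackets) called at 48 h with each inhibitor, to the right for higher and to the left for lower than DMSO. The longer bars of the 10 transporters and of the ATF4 response point to the right with fedratinib (7 of 10 and 11 of 20) and pacritinib (6 of 10 and 12 of 20), and to the left with ruxolitinib (5 of 10 and 8 of 20). Shorter bars point the other way for 1 transporter with pacritinib and 2 genes of the ATF4 response with ruxolitinib. Of all genes, 7.7%, 18.3% and 25.7% were called with fedratinib, pacritinib and ruxolitinib.

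MYC, a known regulator of SLC7A5 and SLC1A5, had 821 and 815 CPM with ruxolitinib at 4 h, against 917 and 915 CPM with DMSO (log2 fold change -0.16 ± 0.039 SE, adjusted p = 0.00588). MYC was also lower at 4 h with momelotinib (log2 fold change -0.16 ± 0.039 SE, adjusted p = 0.0129). It was not called at 4 h with pacritinib (log2 fold change -0.0022 ± 0.039 SE, adjusted p = 0.976), fedratinib (log2 fold change -0.14 ± 0.039 SE, adjusted p = 0.0533) or itacitinib (log2 fold change -0.11 ± 0.039 SE, adjusted p = 0.273). At 48 h its level with ruxolitinib was 785 and 799 CPM, against 748 and 726 CPM with DMSO (log2 fold change 0.10 ± 0.040 SE, adjusted p = 0.0495). With fedratinib (log2 fold change 0.066 ± 0.040 SE, adjusted p = 0.362) and pacritinib (log2 fold change -0.041 ± 0.040 SE, adjusted p = 0.536) at 48 h MYC was not called. NFE2L2, a known regulator of SLC7A11, was not called with fedratinib (log2 fold change -0.16 ± 0.056 SE, adjusted p = 0.0772) or pacritinib (log2 fold change 0.11 ± 0.055 SE, adjusted p = 0.199) at 48 h, and was lower with pacritinib at 4 h (log2 fold change -0.21 ± 0.055 SE, adjusted p = 0.00421).

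The pattern over the 12 group means was compared with that of 9461 better expressed genes (average log2 CPM 3 or more), as a description: the points share the 24 libraries, and some are treatments against the same controls. The mean of the 10 standardised transporters was most like WARS (Pearson r = 0.93), TIMM44 (0.93), CARS (0.92), MARS (0.92) and PSAT1 (0.91). WARS, CARS and MARS encode aminoacyl-tRNA synthetases, TIMM44 a part of the mitochondrial import motor and PSAT1 an enzyme of serine synthesis. SLC7A11 was most like LINC01806 (0.97), CHAC1 (0.97) and MTHFD2 (0.96), SLC7A1 most like GARS (0.97), MEX3B (0.97) and MTHFD2 (0.96), and SLC3A2 most like EIF1 (0.94), CHAC1 (0.93) and WARS (0.91). SLC38A1 was most like BCAT1 (0.95), HOXB9 (0.94) and EIF2S2 (0.93), and SLC38A2 most like TLK2 (0.97), CLPX (0.97) and GTF2B (0.96). Among the transporters themselves r ranged from 0.94 for SLC7A11 with SLC7A1 and 0.93 for SLC7A5 with SLC3A2 to -0.49 for SLC38A2 with SLC6A9, and the neighbours SLC38A1 and SLC38A2 had 0.35.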

How the data were processed

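RNA-seq counts per gene in 24 libraries were used as deposited. Per the submitters' processing notes, the tools included STAR 2.5.1a, bcl2fastq and edgeR and the build was GRCh38; not given in the sources used here were the counter, its annotation and strandedness. Of 34343 entries, 130 were exact repeats of another entry's gene ID and counts, and each gene was used once. Genes were filtered with edgeR's filterByExpr, scaled by TMM and fitted over all 12 groups with edgeR 4.0.16 (glmQLFit and glmQLFTest; 12 residual and a median of 19.4 prior degrees of freedom, common biological coefficient of variation 0.0468). P-values were adjusted by Benjamini and Hochberg over all tested genes, and for inhibitor pairs over genes and pairs. CPM use TMM library sizes; 95% intervals and SEs come from the fit. The libraries of a group differed beyond counting noise by a chi-square check. The fit was tested on simulated data.

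Alternatives were DESeq2 1.42.0, RLE scaling, no filter, a filter of 1 CPM in 6 libraries, libraries of a single time, a block for replicate number, and leaving out each library, the remaining one being taken to vary as other groups do. The transporters and lists were chosen with earlier results of these data known. Named genes were the 10 transporters, MYC, ATF4, NFE2L2, PIM1 and CISH, up to 3 called genes with the largest change per list and comparison, and those most like the transporters; of these, the ones printed were picked after their values were seen. Exon lengths and positions come from GENCODE 29. Intervals cover counting error and the spread between these libraries only.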

Additional observations from a re-analysis of the deposited data

Results flagged for a closer look

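The change of a transporter against DMSO differed between 48 h and 4 h, by edgeR's test of the difference itself, in 16 cases, given as the log2 change at 48 h minus that at 4 h. With pacritinib, the difference was 0.86 for SLC1A4, 0.65 for SLC7A5, 0.51 for SLC3A2 and 0.46 for SLC1A5. With fedratinib, it was 0.60 for SLC3A2, 0.57 for SLC7A5, 0.24 for SLC1A5 and -0.34 for SLC38A2. With momelotinib, it was 0.48 for SLC1A4, 0.33 for SLC7A5, 0.31 for SLC3A2, 0.26 for SLC1A5 and -0.46 for SLC38A2. With ruxolitinib, it was 0.48 for SLC7A5, 0.37 for SLC3A2 and -0.49 for SLC38A1. The 5 inhibitors share the DMSO libraries of both times, so these differences share the fall of SLC7A5 and SLC3A2 in DMSO between the times. No group has the 4 libraries needed to look for a sample far from the others. Of these 16 calls, 6 were lost without 1 library, given with the adjusted p. SLC7A5 with momelotinib was lost without DMSO replicate 2 at 4 h (0.0576). SLC38A2 with fedratinib was lost without DMSO replicate 2 at 48 h (0.156), fedratinib replicate 1 at 48 h (0.164), DMSO replicate 1 at 4 h (0.0604), DMSO replicate 2 at 4 h (0.0831) or fedratinib replicate 2 at 4 h (0.163). SLC1A4 with momelotinib was lost without DMSO replicate 2 at 48 h (0.0916) or DMSO replicate 2 at 4 h (0.0645). SLC3A2 with momelotinib was lost without DMSO replicate 2 at 48 h (0.106), momelotinib replicate 1 at 48 h (0.0504), momelotinib replicate 2 at 48 h (0.0876), DMSO replicate 2 at 4 h (0.111) or momelotinib replicate 2 at 4 h (0.102). SLC1A5 with momelotinib was lost without DMSO replicate 2 at 48 h (0.209), momelotinib replicate 1 at 48 h (0.0832), momelotinib replicate 2 at 48 h (0.137), DMSO replicate 1 at 4 h (0.0745), DMSO replicate 2 at 4 h (0.123) or momelotinib replicate 2 at 4 h (0.14). SLC1A5 with fedratinib was lost without DMSO replicate 2 at 48 h (0.224), fedratinib replicate 1 at 48 h (0.208), DMSO replicate 1 at 4 h (0.0771), DMSO replicate 2 at 4 h (0.144), fedratinib replicate 1 at 4 h (0.0561) or fedratinib replicate 2 at 4 h (0.17).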

How the results depend on the processing

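Of the 66 single transporter calls, all kept direction and call with DESeq2, RLE scaling, the stricter filter and the replicate block. The call of SLC3A2 with momelotinib at 4 h was lost with no filter (adjusted p = 0.0666) and with the libraries of 1 time point (0.0659). Leaving out 1 library gave 328 values, of which 255 kept the call, 73 lost it and 0 changed direction; this setting compares groups with fewer samples. The count of transporters called with fedratinib at 4 h was 1, and 2 with no filter. With momelotinib at 48 h it was 1, and 2 with DESeq2, no filter, the stricter filter, 1 time point only or the replicate block. Without 1 library in turn, the count ranged from 0 to 1 with fedratinib at 4 h, 2 to 5 with momelotinib at 4 h, 0 to 1 with itacitinib at 4 h, 4 to 5 with fedratinib at 48 h, and 0 to 0 with momelotinib at 48 h. It ranged from 2 to 4 for the fedratinib and 1 to 7 for the momelotinib change at 48 h minus 4 h, from 1 to 2 for ruxolitinib over itacitinib at 4 h and from 2 to 5 at 48 h. The replicate numbers did not pair the libraries over all groups: the correlation of deviations of libraries with the same number ranged from -0.349 to 0.383 over 66 pairs of groups (median 0.0259). Pairing within a part of the groups was not tested. The replicate block moved the count of all genes called with fedratinib at 4 h to 333, against 255 without it. With fedratinib at 48 h it moved that count to 1429, against 1238, and it lowered the count in no comparison. With 2 libraries a group, the 95% intervals give the sizes of change that remain possible where none was called, and counts were lowest for SLC6A9 and SLC7A11.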
